A study of Mus musculus with 6 samples.

Results

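Interferon-stimulated genes are described here in tumour-associated macrophages of mice given PLX3397 or vehicle. The set was a list of 41 named genes, matched by symbol and not filtered by their measured values. It was chosen with earlier results of these data known, so the counts below describe the list and are no independent test. Of these, 39 had a probe set that the platform annotation ties to 1 gene symbol, out of 19938 genes tested in all. Each gene was read from its brightest probe set over the 6 arrays. Isg15, which encodes a ubiquitin-like modifier, was annotated to a probe set shared with another gene, and Ifi44 was unnamed here, so neither has a value.

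The PLX3397 group was 3 arrays of macrophages from orthotopically implanted hepa1-6 hepatomas in the liver of C57BL/6 mice treated with PLX3397, an inhibitor of the receptor kinases CSF1R, KIT and FLT3. The vehicle group was 3 arrays of macrophages sorted in the same way from tumours of the same kind in C57BL/6 mice given vehicle. All animals carried the tumour, so no group shows macrophages of a tumour-free liver, and the sources used here give no dose, duration, age or sex. The labels call the arrays biological replicates without saying whether each was 1 animal or a pool. Each description field also carries a second name, M(LPS+IFNγ) for vehicle and M(IL4) for PLX3397, which differs from the titles and was not used for grouping. Whether those names bear on the genes below was not tested.

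As background, type I interferons bind a receptor made of IFNAR1 and IFNAR2 and act through the kinases JAK1 and TYK2. The transcription factor ISGF3, which holds STAT2 and IRF9, then binds the interferon-stimulated response element, or ISRE, in the promoters of target genes. Their products sense viral nucleic acid, block translation, degrade RNA or alter membranes, and others amplify or end the response. Macrophages keep a low level of many of these transcripts without infection, through interferon made at low amounts.

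PLX3397 macrophages had lower levels of most of these genes. Of the 39 measured, 27 were lower and 3 were higher at an adjusted p under 0.05 (limma, Benjamini-Hochberg adjustment over all genes), and 9 did not pass. Over all genes 18.3% were lower, 19.6% higher and 37.8% changed in either direction, and among genes with a mean level of at least 4 log2 the shares were 29.5% lower and 29.3% higher. All 39 lay above the background level of 3.52 to 3.58 on every array and had a mean level above 4, so these last shares are the nearer background. Centring each array on its median made 34.2% of all calls higher, against 51.7% as deposited, and left the list at 27 lower and 3 higher. The median change was -0.62 log2 (PLX3397 minus vehicle), against 0.04 over all genes. Falls of at least 1 log2 past the threshold numbered 12 of the 39, against 4.04% of all genes. The groups did not overlap in 31 of the 39, against 49.3% of all genes. The 4.04% and 49.3% include genes below background and were not computed for genes with a mean level of at least 4. They are therefore a less close background. These arrays cannot tell less transcript in each cell from fewer cells that carry it.

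**Figure D1:**
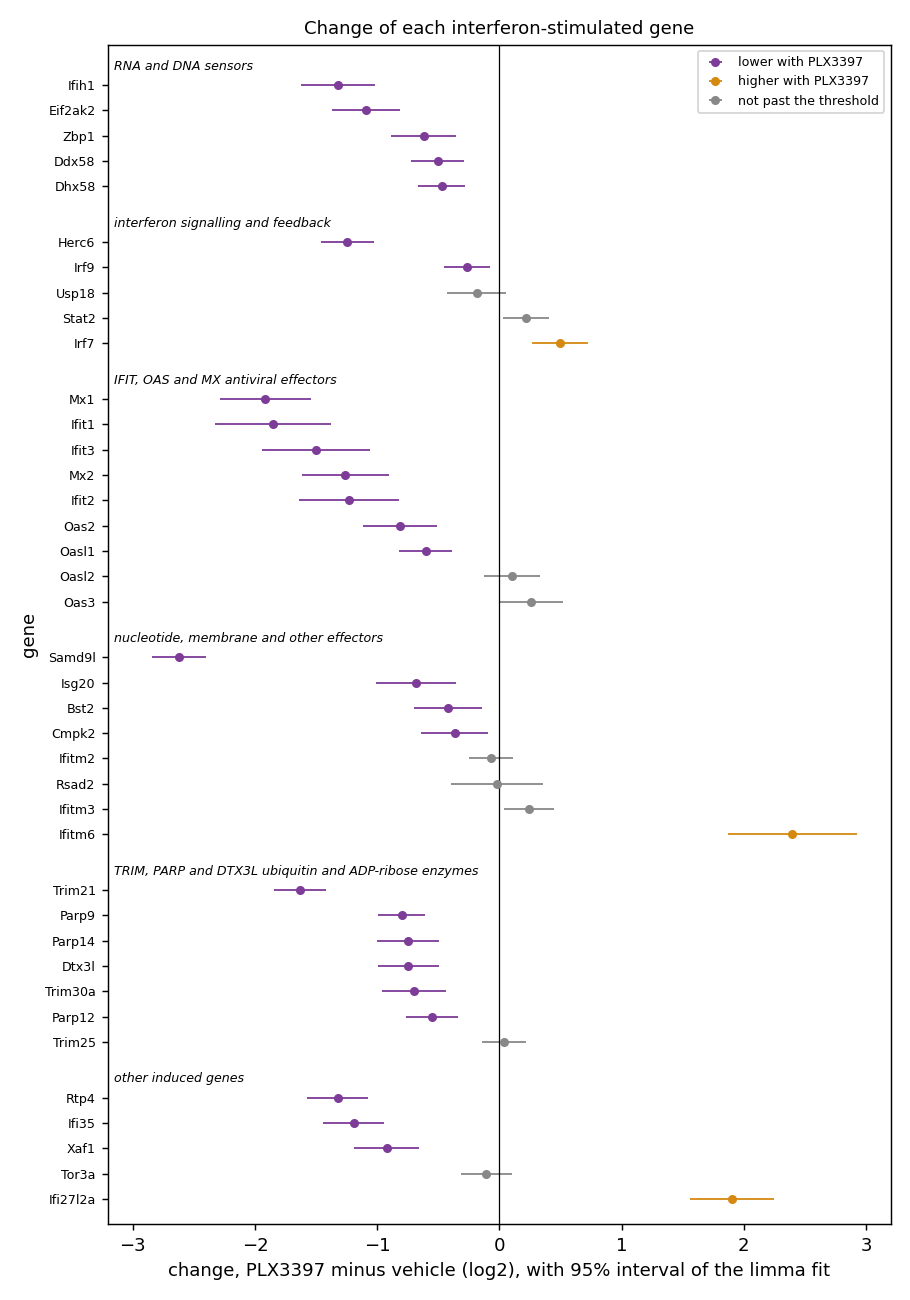
Change of each of the 39 measured genes, PLX3397 minus vehicle on the log2 scale (points), with the 95% interval of the limma fit (bars), ordered by role. Of the 39 points, 27 are marked as lower, 3 as higher (Irf7, Ifitm6 and Ifi27l2a) and 9 as not past the threshold.

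**Figure D2:**
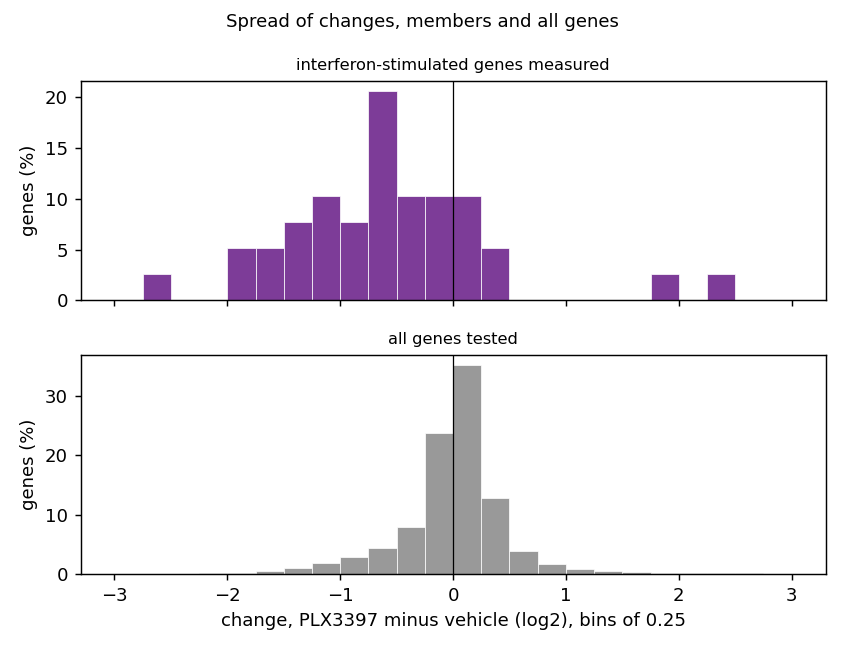
Share of genes (%) in bins of the change, PLX3397 minus vehicle (log2), for the 39 interferon-stimulated genes above and all 19938 genes below. The genes of the list have a median of -0.62 and all genes one of 0.04. Changes beyond 3 in either direction are not drawn, and no gene of the list lies there.

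The promoters of the list were set beside these changes because the ISRE is the element through which ISGF3 acts. RefSeq promoter windows, from 250 bases before to 50 after the annotated start on build GRCm38.p6, were found for 28 of the 39 genes. The core of the ISRE was searched as GAAA, any 2 bases, GAAA on both strands. It was present for 13 of the 28 genes (46.4%), against 3.99% of 27025 genes with a window. The list was drawn up from genes known to respond to interferon, so this share describes the list and not these macrophages. By call, the core was found for 8 of 19 genes that were lower, 5 of 7 that did not pass and 0 of 2 that were higher. The GAS element, which binds STAT dimers and was searched as TTCNNNGAA, was found for 7 of the 28 genes (25%), against 9.55% of all genes, and overlapped an ISRE core in Bst2 and Ifitm3. A kappaB motif, searched as GGG, any 2 bases, TTTCC on both strands, was found for 0 of the 28, against 1.89% of all genes. A match is a string of letters and no proof of a bound site. A gene without one may have the element outside the window or in an inexact form, which was not searched.

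**Figure D3:**
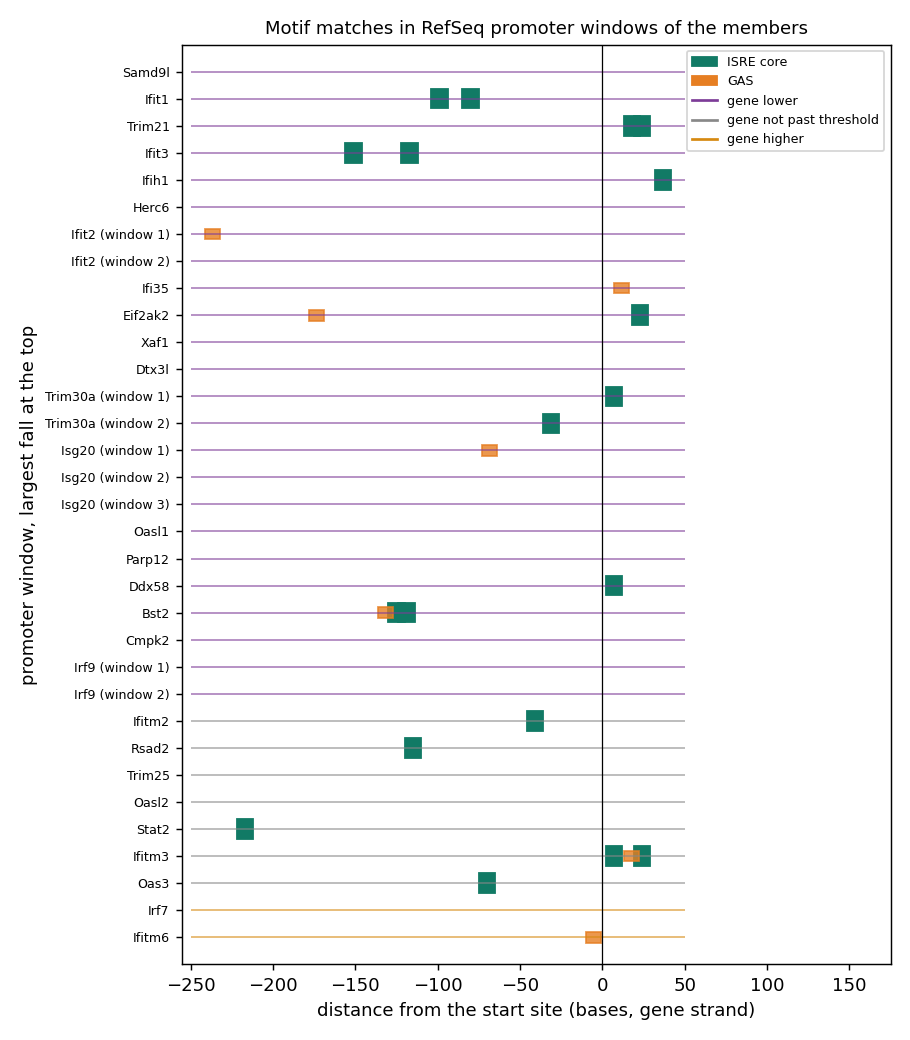
Matches to the ISRE core (green) and the GAS element (orange) in the promoter windows of 28 measured genes, by distance from the annotated start in bases, with genes ordered from the largest fall at the top to the largest rise at the bottom. Line colour gives the call. Matches lie both among genes that fell (Ifit1, Ifit3, Trim21) and among genes that did not pass (Rsad2, Oas3, Ifitm3), and the 2 windows of genes that rose (Irf7, Ifitm6) hold no ISRE core.

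Windows of 6 genes are printed 5′ to 3′ on the gene's strand, with every ISRE core in capitals. They set genes with and without an exact match to the core, and with and without a fall, side by side. Ifit1 (chr19:34640639-34640938, plus strand) and Ifit3 (chr19:34583279-34583578, plus strand) each hold 2 cores before the start, at -104 and -85 in Ifit1 and at -156 and -122 in Ifit3. Trim21 (chr7:102565433-102565732, minus strand) holds 2 overlapping cores just after the start, at 13 and 19. Rsad2 (chr12:26456403-26456702, minus strand), which did not pass the threshold, holds 1 at -120. Samd9l (chr6:3399522-3399821, minus strand), which fell most, and Ifitm6 (chr7:141016843-141017142, minus strand), which rose most, hold none.
Ifit1: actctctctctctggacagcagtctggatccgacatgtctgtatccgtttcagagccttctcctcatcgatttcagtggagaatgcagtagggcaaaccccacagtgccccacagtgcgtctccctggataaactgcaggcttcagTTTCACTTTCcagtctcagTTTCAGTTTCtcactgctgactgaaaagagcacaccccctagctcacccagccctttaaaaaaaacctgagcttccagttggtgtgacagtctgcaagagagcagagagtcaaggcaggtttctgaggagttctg
Ifit3: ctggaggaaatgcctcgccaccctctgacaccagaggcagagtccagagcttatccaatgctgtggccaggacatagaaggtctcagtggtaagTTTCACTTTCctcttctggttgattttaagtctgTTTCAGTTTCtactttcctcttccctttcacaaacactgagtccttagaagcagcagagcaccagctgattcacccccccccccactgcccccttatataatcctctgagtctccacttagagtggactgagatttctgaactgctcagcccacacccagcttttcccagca
Trim21: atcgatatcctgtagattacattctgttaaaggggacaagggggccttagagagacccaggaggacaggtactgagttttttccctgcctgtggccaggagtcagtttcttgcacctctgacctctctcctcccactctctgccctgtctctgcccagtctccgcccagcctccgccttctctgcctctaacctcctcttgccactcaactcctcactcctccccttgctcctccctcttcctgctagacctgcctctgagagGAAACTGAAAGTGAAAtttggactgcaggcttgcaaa
Rsad2: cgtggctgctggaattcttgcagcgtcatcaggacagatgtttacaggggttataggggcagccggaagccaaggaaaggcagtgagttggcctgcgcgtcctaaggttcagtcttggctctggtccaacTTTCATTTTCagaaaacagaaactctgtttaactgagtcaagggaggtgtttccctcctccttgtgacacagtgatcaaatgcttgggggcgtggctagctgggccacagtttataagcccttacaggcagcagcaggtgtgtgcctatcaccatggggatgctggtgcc
Samd9l: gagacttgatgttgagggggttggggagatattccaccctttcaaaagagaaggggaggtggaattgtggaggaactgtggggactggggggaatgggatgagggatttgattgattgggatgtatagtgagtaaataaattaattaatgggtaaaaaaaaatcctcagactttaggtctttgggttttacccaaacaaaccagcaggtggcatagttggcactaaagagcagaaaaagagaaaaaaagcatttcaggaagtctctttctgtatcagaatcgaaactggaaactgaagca
Ifitm6: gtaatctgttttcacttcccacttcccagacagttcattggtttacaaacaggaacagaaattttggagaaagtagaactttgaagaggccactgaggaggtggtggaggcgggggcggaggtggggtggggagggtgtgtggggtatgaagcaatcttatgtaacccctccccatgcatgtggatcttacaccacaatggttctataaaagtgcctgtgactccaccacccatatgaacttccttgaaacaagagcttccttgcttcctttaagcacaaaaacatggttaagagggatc

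The 5 sensors of foreign nucleic acid all fell. Ifih1, whose product MDA5 detects long double-stranded RNA, was at 7.46, 7.78 and 7.25 log2 on the PLX3397 arrays, against 8.86, 8.95 and 8.65 on the vehicle arrays. The lowest vehicle array was above the highest PLX3397 array, and the change was -1.32 (SE 0.14, adjusted p = 2.81e-05). Eif2ak2, which encodes the kinase PKR that shuts down translation on binding double-stranded RNA, was at 7.02, 7.24 and 6.75 with PLX3397, against 8.09, 8.22 and 7.98 with vehicle. It fell by 1.09 (SE 0.13, adjusted p = 6.22e-05), again with no overlap between groups. Zbp1, a sensor of Z-form nucleic acid that can trigger necroptosis, was at 8.49, 8.90 and 8.49 with PLX3397, against 9.36, 9.23 and 9.15 with vehicle, a change of -0.62 (adjusted p = 0.00209). Its PLX3397 replicate 2 was the nearest to the vehicle arrays. Ddx58, which encodes RIG-I, was at 9.05, 9.24 and 9.01 with PLX3397, against 9.69, 9.67 and 9.46 with vehicle, a smaller fall of 0.50 (adjusted p = 0.00219). Dhx58, which encodes the regulator LGP2 of these helicases, had a change of -0.47 (SE 0.08, adjusted p = 0.00131). Ifih1, Ddx58 and Eif2ak2 each had an ISRE core in their window, just after the start.

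**Figure D4:**
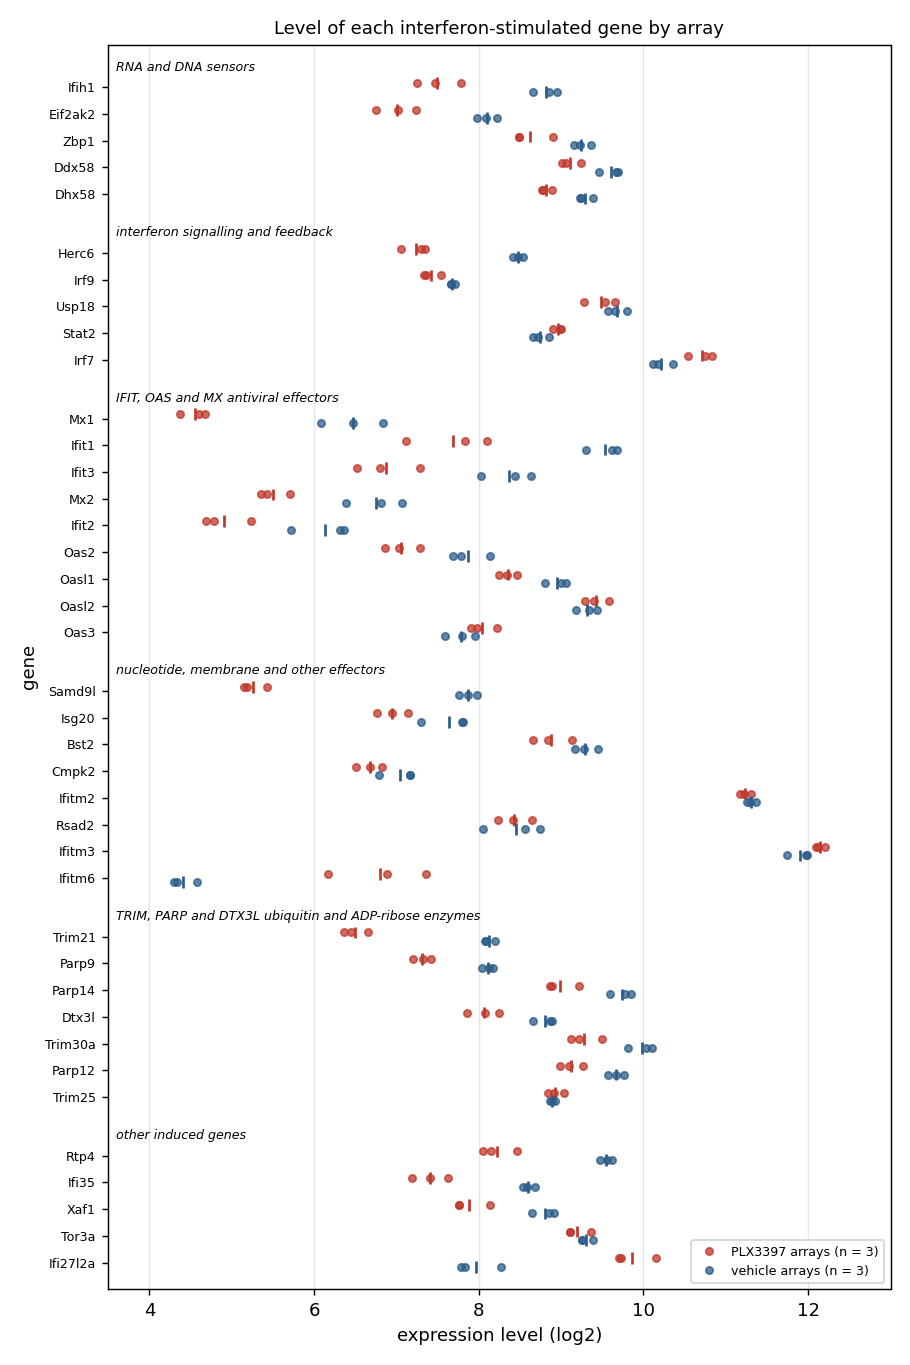
Level (log2) of each measured gene on every array, with PLX3397 arrays in red above vehicle arrays in blue, small bars for group means, and n = 3 arrays per group. Most genes have their PLX3397 points to the left of the vehicle points, while Ifitm6 and Ifi27l2a lie to the right with a wide gap.

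The signalling and feedback genes did not move together. Irf7, the transcription factor that amplifies interferon alpha production, was at 10.54, 10.83 and 10.75 with PLX3397, against 10.36, 10.17 and 10.11 with vehicle. It rose by 0.49 (SE 0.10, adjusted p = 0.00349) with no overlap between groups, against the direction of most of the list. Irf9, the DNA-binding part of ISGF3, was at 7.34, 7.54 and 7.36 with PLX3397, against 7.71, 7.67 and 7.66 with vehicle. Its fall was slight, 0.27 (SE 0.08, adjusted p = 0.0309), and the call was lost with quantile normalisation (limma adjusted p = 0.145), with the replicate number as a block (0.0526) and in 5 of 6 fits that left out 1 array (0.0679 to 0.107). Of those 6, only the fit without PLX3397 replicate 2 kept it. Stat2, its partner in ISGF3, averaged 8.96 ± 0.05 with PLX3397 and 8.74 ± 0.10 with vehicle (SD, n = 3 each). The groups did not overlap, yet the change of 0.22 did not pass (limma adjusted p = 0.0668), and its 95% interval ran from 0.03 to 0.41. Herc6, the main ligase that attaches ISG15 in mice, was at 7.35, 7.30 and 7.05 with PLX3397, against 8.54, 8.48 and 8.41 with vehicle, and fell by 1.24 (SE 0.10, adjusted p = 4.35e-06). Usp18, which removes ISG15 and blocks the receptor IFNAR2, had overlapping groups and a change of -0.19 (95% interval -0.43 to 0.06, limma adjusted p = 0.219).

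Among the 9 IFIT, OAS and MX genes 7 fell, and their median change of -1.23 was the lowest of the 6 roles. Mx1, a dynamin-like GTPase active against influenza viruses, was at 4.67, 4.61 and 4.37 with PLX3397, against 6.84, 6.48 and 6.08 with vehicle. It fell by 1.91 (SE 0.17, adjusted p = 9.91e-06), with every PLX3397 array below every vehicle array. C57BL/6 mice, like most laboratory strains, carry defective alleles of Mx1 and Mx2, so these transcripts report on the response and not on protection. Mx2 was at 5.43, 5.70 and 5.35 with PLX3397, against 6.82, 7.06 and 6.38 with vehicle, a change of -1.26 (SE 0.16, adjusted p = 0.000133). Ifit1, whose product binds RNA caps that lack ribose methylation, was at 7.83, 8.10 and 7.12 with PLX3397, against 9.62, 9.68 and 9.30 with vehicle. The change was -1.85 (SE 0.21, adjusted p = 6.7e-05), and PLX3397 replicate 3 lay well below the other PLX3397 arrays. Ifit3 was at 6.80, 7.29 and 6.52 with PLX3397, against 8.63, 8.44 and 8.03 with vehicle, a change of -1.50 (SE 0.20, adjusted p = 0.000162). Ifit2, of the same family, fell by 1.23 (SE 0.18, adjusted p = 0.000389). Near-identical copies of Ifit genes can share probes, so single values are uncertain.

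The OAS and OAS-like genes of the list split. OAS proteins make oligoadenylates that activate a latent ribonuclease. Oas2 averaged 7.06 ± 0.21 with PLX3397 and 7.87 ± 0.23 with vehicle (SD, n = 3 each), a change of -0.81 (SE 0.14, limma adjusted p = 0.000869). Oas3, its neighbour, averaged 8.04 ± 0.17 with PLX3397 and 7.78 ± 0.18 with vehicle, and its change of 0.26 did not pass (95% interval -0.0042 to 0.52, limma adjusted p = 0.116). With quantile normalisation Oas3 passed as higher (0.33, limma adjusted p = 0.0454). Oasl1, which in mice holds back translation of Irf7, fell by 0.60 (SE 0.10, adjusted p = 0.000698), while Oasl2 next to it had a change of 0.10 (95% interval -0.13 to 0.33, limma adjusted p = 0.476). Outside the list, Oas1a (-0.84, limma adjusted p = 0.00209) and Oas1b (-0.41, limma adjusted p = 0.00405) were lower. Oas1c was higher (0.42, limma adjusted p = 0.0338). Oas1b was above background on 0 PLX3397 arrays and 1 vehicle array.

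The other effectors ranged most widely, from the largest fall to the largest rise of the list. Samd9l, which restricts translation and poxviruses, was at 5.18, 5.42 and 5.15 with PLX3397, against 7.87, 7.98 and 7.76 with vehicle. It fell by 2.62 (SE 0.10, adjusted p = 3.76e-08), or 6.14-fold, with arrays of a group close to each other. Isg20, an exonuclease that degrades RNA, was at 6.95, 7.14 and 6.76 with PLX3397, against 7.81, 7.79 and 7.30 with vehicle, a change of -0.68 (adjusted p = 0.00397). Bst2, or tetherin, which holds budding virions at the cell surface, was at 8.84, 9.13 and 8.65 with PLX3397, against 9.45, 9.17 and 9.27 with vehicle. Its groups were only just apart, and the change of -0.42 (SE 0.13, adjusted p = 0.0231) lost its call without PLX3397 replicate 1 (0.0673) or 3 (0.0668) and without vehicle replicate 1 (0.0884) or 3 (0.0546).

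Rsad2 and Cmpk2 are adjacent genes that work on nucleotides: viperin, the product of Rsad2, makes a chain-terminating form of CTP, and Cmpk2 is a mitochondrial nucleotide kinase. Rsad2 was at 8.42, 8.65 and 8.23 with PLX3397, against 8.56, 8.74 and 8.05 with vehicle. The vehicle arrays spanned those of PLX3397, and the change was -0.02 (95% interval -0.39 to 0.36, limma adjusted p = 0.948). Cmpk2 averaged 6.67 ± 0.16 with PLX3397 and 7.04 ± 0.22 with vehicle (SD, n = 3 each), with overlapping groups and a change of -0.36 (adjusted p = 0.0396). That call was lost with quantile normalisation (limma adjusted p = 0.11), and also without vehicle replicate 1 or 2 or PLX3397 replicate 1 or 3 (0.086 to 0.141).

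The interferon-induced transmembrane genes, which lie together on chromosome 7 and whose products IFITM2 and IFITM3 hinder fusion of viruses with endosomes, behaved differently from one another. Ifitm6 was at 6.88, 7.36 and 6.17 with PLX3397, against 4.29, 4.58 and 4.34 with vehicle. It rose by 2.40 (SE 0.24, adjusted p = 2.24e-05), or 5.27-fold, and the lowest PLX3397 array, replicate 3, was above every vehicle array. Ifitm3 averaged 12.14 ± 0.06 with PLX3397 and 11.90 ± 0.14 with vehicle, and the change of 0.24 did not pass (95% interval 0.04 to 0.44, limma adjusted p = 0.0646). Ifitm2 had 3 probe sets that did not agree. Its brightest had a change of -0.07 (limma adjusted p = 0.548), another one of -0.02 and the dimmest one of -0.32 (adjusted p = 0.0258 over all probe sets), so the gene cannot be called in either direction. Ifitm6 is also known as a gene of monocytes and neutrophils. Of 7 measured markers of Ly6C-high monocytes 3 were higher and 3 lower. Their log2 levels summed to 41.0 to 42.1 with PLX3397, against 38.3 to 39.3 with vehicle. Without Chil3 they summed to 32.9 to 34.8 with PLX3397, against 35.7 to 36.6 with vehicle, so the direction changed with that 1 gene. The lower sum still holds the large fall of Ms4a4c (-3.36), and sums without Ms4a4c were not made. These sums therefore give no direction for the other markers. The part of monocytes, or of neutrophils, whose markers are given below, in the rise of Ifitm6 was not tested.

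Of the 7 genes for ubiquitin and ADP-ribose enzymes 6 fell. Trim21, a cytosolic antibody receptor and ubiquitin ligase, was at 6.45, 6.66 and 6.37 with PLX3397, against 8.20, 8.07 and 8.09 with vehicle. It fell by 1.63 (SE 0.10, adjusted p = 6.47e-07), the most of this role. Parp9 was at 7.32, 7.42 and 7.20 with PLX3397, against 8.12, 8.18 and 8.04 with vehicle, a change of -0.80 (adjusted p = 4.36e-05). Dtx3l, the ubiquitin ligase that forms a complex with PARP9, was at 8.07, 8.25 and 7.86 with PLX3397, against 8.89, 8.87 and 8.66 with vehicle, a change of -0.74 (adjusted p = 0.000409). Parp14, a mono-ADP-ribosyltransferase that also takes part in IL4 signalling, was at 8.86, 9.21 and 8.89 with PLX3397, against 9.77, 9.85 and 9.59 with vehicle, a change of -0.75 (adjusted p = 0.000425). These 3 genes lie next to each other on chromosome 16 and fell by nearly the same amount. Trim30a, a brake on NF-kB signalling in mice, fell by 0.70 (adjusted p = 0.000821). Parp12, another ADP-ribosyltransferase gene, fell by 0.55 (adjusted p = 0.00118). Trim25, the ligase that ubiquitinates RIG-I, had a change of 0.04 (95% interval -0.14 to 0.22, limma adjusted p = 0.763).

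In the remaining group Ifi27l2a rose while 3 others fell. Ifi27l2a, a small mitochondrial or nuclear-envelope protein gene, was at 9.73, 10.15 and 9.71 with PLX3397, against 8.27, 7.83 and 7.78 with vehicle, a rise of 1.90 (SE 0.15, adjusted p = 5.84e-06). Rtp4, an inhibitor of flavivirus replication, was at 8.14, 8.47 and 8.06 with PLX3397, against 9.55, 9.62 and 9.47 with vehicle, a change of -1.32 (adjusted p = 7.85e-06). The 2 genes therefore changed in opposite directions, each with no overlap between groups. Ifi35 was at 7.40, 7.63 and 7.19 with PLX3397, against 8.68, 8.53 and 8.58 with vehicle, a change of -1.19 (adjusted p = 1.58e-05). Xaf1, which opposes an inhibitor of apoptosis, was at 7.75, 8.13 and 7.75 with PLX3397, against 8.85, 8.91 and 8.65 with vehicle, a change of -0.92 (adjusted p = 0.000149). Tor3a had overlapping groups and a change of -0.11 (95% interval -0.32 to 0.10, limma adjusted p = 0.417).

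Neighbouring genes of the list were compared within each array, by the difference between their log2 levels, in 8 pairs, all adjacent among protein-coding genes except Ifitm2 and Ifitm3, which have 1 such gene between them. Oas3 minus Oas2 lay between 0.87 and 1.12 with PLX3397, against -0.34 and 0.17 with vehicle, so the neighbours changed by unequal amounts. The same held for Oasl1 minus Oasl2, which lay between -1.11 and -1.04 with PLX3397, against -0.38 and -0.34 with vehicle. Ifitm6 minus Ifitm3, Ifitm3 minus Ifitm2 and Cmpk2 minus Rsad2 also had groups that did not overlap. For these 5 pairs the exact permutation p was 0.1, the smallest that 3 arrays against 3 can give, or 0.16 adjusted over the 8 pairs. Dtx3l minus Parp14 lay between -1.03 and -0.79 with PLX3397, against -0.98 and -0.88 with vehicle, and Parp9 minus Dtx3l and Ifit3 minus Ifit2 overlapped as well (exact permutation p from 0.2 to 1).

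Within a group the genes moved together from array to array. PLX3397 replicate 2 had the highest level of its group in 35 of the 39 genes, and PLX3397 replicate 3 the lowest in 29. Vehicle replicate 3 had the lowest level of its group in 33. Over the 39 genes the median deviation from the group mean was 0.19 log2 on PLX3397 replicate 2 and -0.14 on vehicle replicate 3, against 0.03 and -0.0016 over all genes. The medians over all genes include 5394 genes below background on every array. Counts of highest and lowest arrays were not made over other genes. Whether this pattern is particular to the list was therefore not tested. The mean level of the 27 genes that fell was 7.41, 7.65 and 7.28 with PLX3397, against 8.55, 8.54 and 8.30 with vehicle. The 39 calls therefore share array-wide variation and do not count as 39 separate observations. Without PLX3397 replicate 3, 24 genes were lower and 3 higher, with a median change of -0.55. Without PLX3397 replicate 2, 27 were lower and 3 higher, with a median of -0.76.

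**Figure D5:**
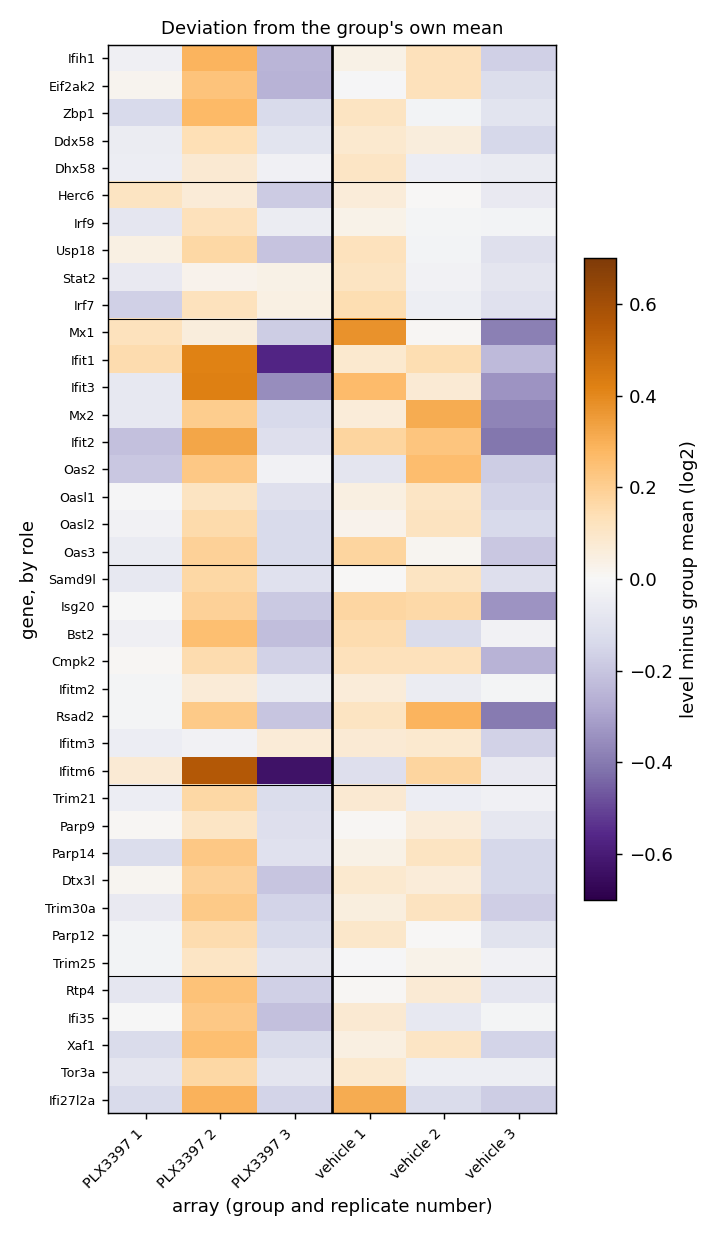
Level of each measured gene minus the mean of its own group (log2, colour scale), with genes in rows by role and the 3 PLX3397 arrays left of the 3 vehicle arrays. PLX3397 replicate 2 is above its group mean in nearly every row, with 35 of 39 genes at their group's highest value, and vehicle replicate 3 is at its group's lowest value in 33.

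Genes upstream of the list were read against the shares over all genes (19.6% higher, 18.3% lower) and over genes with a mean level of at least 4 (29.3% higher, 29.5% lower). Of 15 measured genes for type I and III interferons 3 were higher and 0 lower, a share of higher calls near that of all genes, and 9 of the 15 were below background on every array, Ifnb1 among them (3.36 ± 0.08 with PLX3397 and 3.39 ± 0.13 with vehicle, SD, n = 3 each, limma adjusted p = 0.881). The rises of Ifnz (0.36, adjusted p = 0.0248) and Ifna5 (0.30, adjusted p = 0.0319) were small and ended when arrays were centred on their medians (limma adjusted p = 0.096 and 0.156). The block of replicate numbers ended that of Ifna5 (0.0527). They also ended without vehicle replicate 1 (0.0529 and 0.0552) or 3 (0.0742 and 0.121), Ifnz without vehicle replicate 2 (0.0666) or PLX3397 replicate 2 (0.0632), and Ifna5 without PLX3397 replicate 1 (0.108) or 3 (0.0794). The third, Ifna2, lay below background in both groups.

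Of 22 receptor, JAK-STAT and feedback genes 7 were higher and 8 lower, which is near the 29.3% and 29.5% of genes with a mean level of at least 4, so the counts set this list apart in neither direction. The receptor subunit gene Ifnar2 was at 9.60, 9.65 and 9.54 with PLX3397, against 10.26, 10.21 and 10.19 with vehicle, and fell by 0.62 (SE 0.08, adjusted p = 0.000109). Its partner Ifnar1 did not pass (change 0.03, 95% interval -0.18 to 0.24, limma adjusted p = 0.85), nor did Jak1 (-0.12, adjusted p = 0.415) or Tyk2 (0.05, adjusted p = 0.769). Socs1, a feedback inhibitor of JAK kinases, was at 8.62, 8.81 and 8.34 with PLX3397, against 7.02, 6.96 and 7.22 with vehicle, and rose by 1.52 (SE 0.12, adjusted p = 6.34e-06). The largest rise of these genes was that of Cish, a feedback gene of STAT5 signalling (4.33, adjusted p = 3e-09). The largest falls were those of the phosphatase gene Ptpn2 (-0.90, adjusted p = 0.000293) and of Irf1 (-0.79, adjusted p = 0.000299). The activating enzyme Uba7 and the conjugating enzyme Ube2l6 of the ISG15 pathway, which act before Herc6, had changes of -0.37 (adjusted p = 0.00563) and -0.32 (adjusted p = 0.0251).

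Of 21 genes that lead to or regulate interferon production 4 were higher and 9 lower, against the same 29.3% and 29.5%. The difference from those shares was not tested. The list mixes genes that promote this production with genes that restrain it, so the counts give no direction for production. Sting1, the adaptor of cytosolic DNA sensing, was at 8.96, 8.56 and 8.84 with PLX3397, against 6.44, 6.34 and 6.52 with vehicle, a rise of 2.35 (adjusted p = 1.54e-07). The kinase gene Ikbke had a change of -1.46 (adjusted p = 1.2e-06) and the endosomal RNA receptor gene Tlr8 one of -1.58 (adjusted p = 1.66e-06). Tlr7 and Tlr3, other endosomal RNA receptors, had changes of -0.93 (adjusted p = 0.000588) and -1.03 (adjusted p = 1.32e-05), and the kinase gene Tbk1 one of -0.62 (adjusted p = 0.000126). The endosomal receptor gene Tlr9 went the other way, with a rise of 0.34 (limma adjusted p = 0.0253), as did Mavs (0.27, limma adjusted p = 0.0155). The mitochondrial regulator Nlrx1 rose by 0.44 (adjusted p = 0.00197), whereas Irf3 (-0.25, adjusted p = 0.0955) and Irf5 (-0.06, adjusted p = 0.573) did not pass. Irf3 passed as lower with centred arrays (limma adjusted p = 0.0267) and without PLX3397 replicate 2 (0.0314).

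A further 41 interferon-stimulated genes outside the list were measured, of which 20 were lower and 7 higher, with a median change of -0.22, against 29.5% lower and 29.3% higher among genes with a mean level of at least 4. Falls of at least 1 log2 numbered 11 of these, against 4.04% of all genes, a share that includes genes below background. Ifi44l fell by 2.26 (SE 0.14, adjusted p = 1.2e-06). Pnpt1, a mitochondrial exoribonuclease gene, fell by 2.22 (SE 0.09, adjusted p = 4.06e-08). Ly6e, a membrane protein gene, was at 11.28, 11.23 and 11.32 with PLX3397, against 10.21, 10.21 and 9.75 with vehicle, and rose by 1.22 (adjusted p = 2.36e-05). Lgals3bp rose by 0.68 (adjusted p = 8.58e-05). Cxcl10, a chemokine gene induced by interferons, had a change of -0.0030 (SE 0.16, adjusted p = 0.991).

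The macrophage label was checked on 10 defining markers, and all 10 were above background on all arrays, with 2 higher and 5 lower. Their log2 levels summed to 99.9 to 101.8 with PLX3397, against 102.7 to 103.1 with vehicle, and overlapped without Aif1 (-1.50). Of 8 measured markers of plasmacytoid dendritic cells, the professional interferon producers, 1 was higher and 3 lower, and Siglech and Cd209d were below background on all arrays. These 8 summed to 33.3 to 34.0 with PLX3397, against 34.1 to 34.7 with vehicle, and overlapped without Ccr9, which was above background on 0 PLX3397 and 3 vehicle arrays. Among the Ly6C-high monocyte markers Ccr2 and Plac8 were below background on all arrays. Chil3 averaged 7.69 ± 0.41 with PLX3397 and was below background on every vehicle array, and F13a1 rose by 1.53. Ms4a4c averaged 5.57 ± 0.26 with PLX3397 and 8.93 ± 0.42 with vehicle (SD, n = 3 each), a fall of 3.36 (limma adjusted p = 6.27e-07), and Vcan (-0.60) and Hp (-0.53) were lower too. Conventional dendritic cell markers (10 measured, 5 higher) summed to 41.6 to 42.3 with PLX3397, against 35.5 to 36.3 with vehicle, and without Ccr7 (3.35) to 33.9 to 34.9 with PLX3397, against 31.6 to 32.1 with vehicle, with Xcr1 and Clec9a below background throughout. Endothelial markers (9 measured, 4 higher, led by Kdr at 1.70) summed to 42.0 to 43.8 with PLX3397, against 36.2 to 37.0 with vehicle. Without Kdr the endothelial sums were 34.1 to 35.8 with PLX3397, against 30.0 to 30.6 with vehicle. Neutrophil markers (12 measured, 4 higher, 1 lower) summed to 58.9 to 60.7 with PLX3397, against 57.6 to 58.8 with vehicle, with Csf3r (-1.55) and S100a8 (1.52) moving in opposite directions. Without Csf3r the neutrophil sums were 51.3 to 52.6 with PLX3397, against 48.3 to 49.5 with vehicle. T and NK cell markers (12 measured, 1 higher, Icos at 0.79) summed to 40.7 to 41.6 with PLX3397, against 39.1 to 40.9 with vehicle. B cell markers (7 measured, 3 higher, led by Cd79b at 0.62) summed to 24.7 to 25.2 with PLX3397, against 23.2 to 23.8 with vehicle. Without Cd79b the B cell sums were 19.7 to 19.9 with PLX3397, against 18.6 to 19.4 with vehicle. Of 8 measured hepatocyte markers Trf alone was higher (2.85), and Alb, Ttr, Fgb and Tat were below background on all arrays. The 8 summed to 36.3 to 36.6 with PLX3397, against 33.1 to 33.8 with vehicle, and without Trf to 25.1 to 25.2 with PLX3397, against 24.7 to 25.3 with vehicle. Fibroblast markers (8 measured, 2 lower, led by Col1a1 at -0.60) summed to 43.3 to 48.9 with PLX3397, against 43.4 to 46.4 with vehicle. The part of any of these in the changes of the list was not tested.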

How the data were processed

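Values on 6 Affymetrix Mouse Gene 1.0 ST arrays were used as deposited, on a log2 scale and per probe set. The base of the logarithm was read from the values (1.57 to 13.5), and array medians lay between 4.21 and 4.35. How the values were summarised and normalised is not given in the sources used here, beyond MAS5, which the submitters' processing notes name with no version or role. Scanner files and scan dates were not analysed here, so no batch could be tested.

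Of 28941 probe sets, 21789 carry 1 gene symbol in the platform annotation, 1621 several and 5531 none. Each of 19938 genes was represented by its brightest probe set. A linear model with a term for group alone was fitted over all genes with limma 3.58.1 (R 4.3.3, moderated statistics, two-sided), with Benjamini-Hochberg adjustment, a threshold of 0.05 and changes as PLX3397 minus vehicle. The fit was run on simulated data with independent noise for each gene, so this check did not cover variation that genes share on an array. The labels call the arrays biological replicates but do not say whether each was 1 animal or a pool. The spread behind each p-value may therefore not be that between animals, and the number of arrays limits the precision. As background level, each array's 95th percentile over 1194 genes for olfactory or vomeronasal receptors was taken. Promoter windows are those of RefSeq, matched by symbol, and figures were drawn with matplotlib.

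The genes of the list, their roles and the other lists were chosen with earlier results of these data known. Per-array values are given for up to 4 genes a role with the largest changes past the threshold, and for genes moving against most of their role. Values of a few further genes (Rsad2, Oas1a, Oas1b, Oas1c, Tlr3, Tlr7, Tlr9, Tbk1, Mavs, Uba7, Ube2l6, Cxcl10, Ifna2, F13a1, Ms4a4c, Vcan, Hp, S100a8 and markers below background) were added after they were seen. In each pathway list the 2 largest rises and falls past the threshold are named, with 8 pathway genes always, and in each marker list the largest change. Sums without that marker were added after the values were seen. Alternatives covered normalisation, centring, filters, the replicate number as a block, variance settings, weights, probe sets, the threshold and leaving out each array.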

Additional observations from a re-analysis of the deposited data

How the results depend on the processing

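Of the 27 genes called lower, 24 kept the call in all 16 alternative fits, as did the 3 called higher. The exceptions were Irf9, Cmpk2 and Bst2. The number lower ran from 24 to 27 and the median change from -0.76 to -0.55 over the alternatives. Leaving out 1 array gave 24 to 27 lower, 3 to 4 higher and medians from -0.76 to -0.55. The number higher was 5 instead of 3 with a filter on mean level and with a variance trend, when Stat2 (limma adjusted p = 0.0499 and 0.0448) and Ifitm3 (0.0476 and 0.0191) passed. It was 4 with quantile normalisation, when Oas3 passed (0.0454), and without vehicle replicate 1, when Stat2 passed (0.0481). Centring arrays moved the median change of all genes to -0.07, from 0.04 as deposited, and the share of calls that were higher to 34.2%, from 51.7%, while the list kept 27 lower and 3 higher. The list's median was then -0.73. Among genes that did not pass, centring turned the sign of Oasl2 (-0.0069), Trim25 (-0.072), Ifnar1 (-0.082) and Tyk2 (-0.063). Leaving out 1 array gave changes from -0.22 to 0.13 for Rsad2, -0.015 to 0.081 for Trim25, -0.094 to 0.021 for Ifnb1, -0.064 to 0.090 for Ifnar1 and -0.014 to 0.16 for Tyk2. The labels do not say whether the replicate numbers pair the arrays. Deviations of same-numbered arrays correlated at -0.01, 0.01 and -0.01 over all genes, and at 0.02, 0.31 and 0.17 over the list. Arrays of different numbers correlated at -0.24 to 0.06 over the list. Pairing was therefore not settled. With the replicate number as a block 26 genes were lower and 3 higher, with 3646 higher and 3508 lower over all genes, against 3900 and 3639 without it. The cause of these shifts was not tested.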
